A study of Rattus norvegicus with 6 samples.

Results

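The astrocyte genes described here are 32 markers of astrocytes, the supporting glial cells of the brain, and of their reactive state. They were fixed by gene symbol and chosen with earlier results of these data known. Each gene was read from the probe set that names it alone, taking the one with the highest mean where there were several. Of the 32 genes, 31 had such a probe set, among 22093 genes that could be read in the same way and 68842 probe sets tested. Ppp1r3c, a glycogen-targeting subunit of protein phosphatase, was not read by this rule, because its only probe set lists the symbol in 2 spellings that differ in letter case (Ppp1r3c and PPP1R3C). The genes form a homeostatic class (25 listed, 24 measured) and a reactive class of 7, Gfap, Vim, Nes, Cd44, Lcn2, Serpina3n and S100a10.

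Hippocampal RNA came from 18-month-old male Sprague-Dawley rats, 3 of them anesthetized for 4 h with sevoflurane, a volatile anesthetic, at a concentration of 2.5%, and 3 controls kept without it in a chamber of the same kind for as long. The gas was 100% oxygen in both groups. Tissue of the sevoflurane group was taken 3 h after the end of anesthesia. Each rat gave 1 array of the one-colour Clariom D Pico type, for which the authors deposited a normalized log2 value per probe set. With pure oxygen in both, neither group shows the hippocampus of a rat in room air.

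Astrocytes take up glutamate and potassium released by neurons, turn glutamate into glutamine, and hold the water and ion balance at the endfeet that wrap blood vessels. After injury, inflammation or ischemia they enter reactive states in which intermediate filaments and secreted proteins accumulate. In the hippocampus they are a minor share of cells beside densely packed neurons. Because whole tissue was used, a change in the share of astrocytes and a change in RNA per astrocyte cannot be told apart in any value below.

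All 31 measured genes were on every array brighter than that array's median background control (3.46 to 3.96). The defining markers Gfap, Aqp4, Aldh1l1 and S100b were among them. This is a low bar, since the array medians over all tested probe sets were 5.52 to 5.76. Serpina3n, with means of 5.24 after sevoflurane and 5.17 in controls, lay below those medians. Whether members this dim could show a change was not tested. Mean levels of the members were between 5.21 and 12.01 on the log2 scale. These levels are not compared between genes, because each probe set has its own affinity. One array stood apart, sevoflurane replicate 1, whose mean correlation with the others across probe sets was 0.986 (0.991 to 0.993 for each other array) and whose values were less spread (SD of 1.85, and 1.93 to 2.03 elsewhere). Calls that change without it, and differences that turn direction, are given both ways.

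Homeostatic genes were higher after sevoflurane in 4 cases, Mertk, Htra1, Aldoc and Mlc1, and no astrocyte gene was lower, at an unadjusted p under 0.05 from limma. These 4 are 12.9% of the 31 measured genes, which were chosen with earlier results of these data known. In the same fit 0.864% of all 68842 probe sets were called higher and 0.745% lower, a total of 1.61%, and among the 22093 genes 1.10% were called higher and 0.222% lower, a total of 1.32%. Of the 16688 genes at least as bright as the dimmest member 1.19% were called higher and 0.204% lower, a total of 1.39%. No reactive gene was called in either direction in this fit. After Benjamini-Hochberg adjustment over all probe sets none of the 31 genes passed, each with an adjusted p of 1 from limma, and none of all 68842 did (smallest adjusted p = 0.184). Before adjustment 1108 probe sets passed, and the one-way analysis of variance of the study's methods also left 0 after adjustment. The fold changes were small, between 0.83 and 1.43 for the 31 genes.

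Homeostatic genes had a median log2 fold change of 0.09 and reactive genes of 0.08, where the median was 0.02 over the 22093 genes and 0.01 over all probe sets. A positive difference was found for 18 of 24 homeostatic genes and for 5 of 7 reactive genes, and 62.5% of the 22093 genes also had one. In 10 of the 31 astrocyte genes every sevoflurane array was above every control array, all 10 of them homeostatic. That is 32.3% of the members, against 4.93% of the 22093 genes, 5.58% of the 16688 brighter ones and 3.12% of all probe sets. In no member was every sevoflurane array below every control array, which was the case for 1.34%, 1.44% and 2.35% of these. The classes differ in number, and whether their shares differ was not tested. In gene lists described below, every sevoflurane array was above every control array for 33.3% of 54 other astrocyte genes. This share was 46.7% of 15 thalamus and habenula markers and 27.3% of 11 oligodendrocyte markers. It was 18.2% of 11 microglia markers, 8.33% of 12 endothelial markers and 0% of 12 neuron markers.

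**Figure D1:**
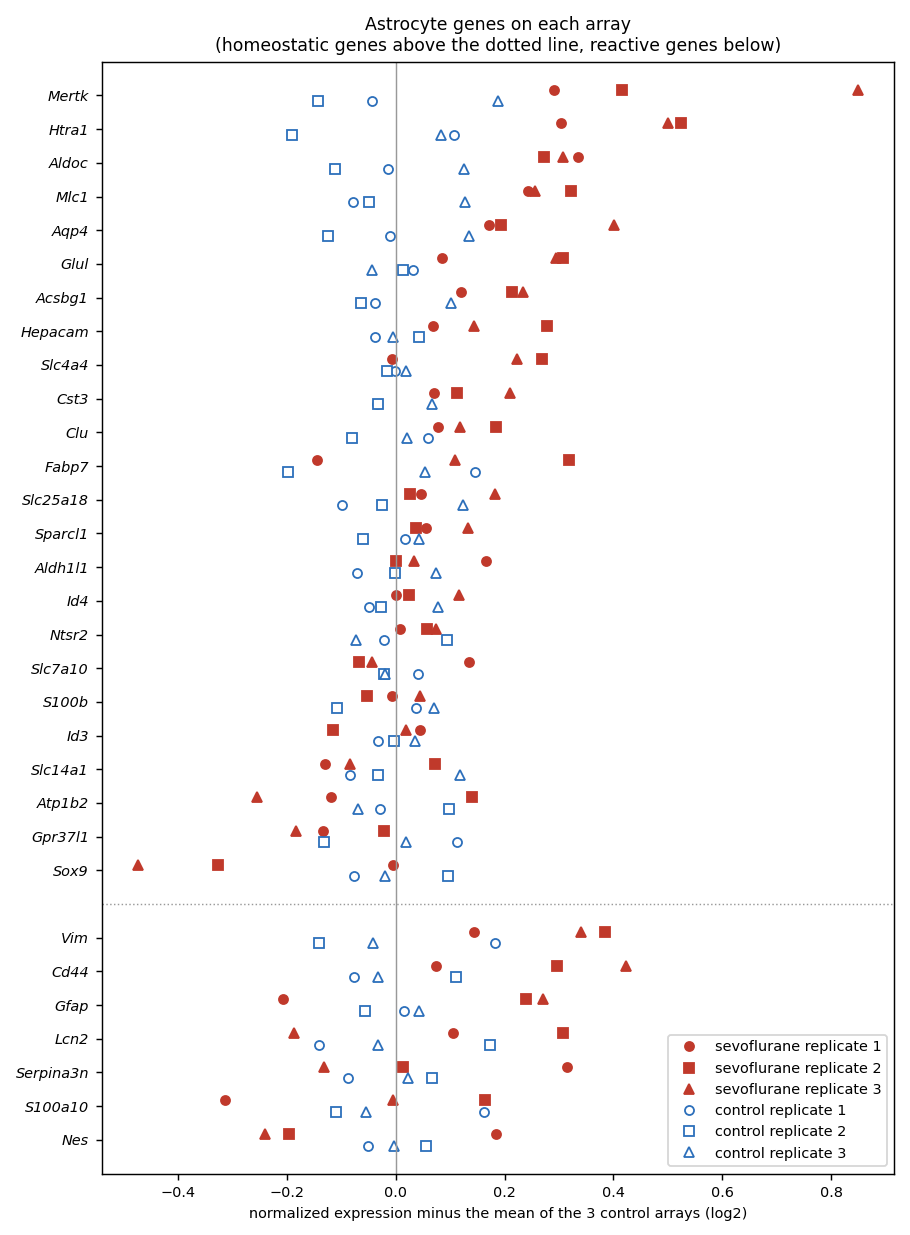
Normalized expression (log2) of each astrocyte gene on each of the 6 arrays, as the difference from the mean of the 3 control arrays, with 1 row per gene. Filled red symbols are sevoflurane arrays and open blue symbols are control arrays. The 10 genes whose groups do not overlap are all in the upper, homeostatic part, and sevoflurane replicate 3 of Mertk is the point farthest to the right.

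Mertk encodes a receptor tyrosine kinase with which astrocytes, and also microglia, recognise and engulf synapses and dying cells. It had the largest difference of the 31 genes. Its normalized expression (log2) was 8.14, 8.26 and 8.70 on the sevoflurane arrays, against 7.80, 7.70 and 8.03 on the control arrays. The groups did not overlap, and sevoflurane replicate 3 lay well above the others. Mean levels were 8.37 ± 0.29 after sevoflurane and 7.85 ± 0.17 in controls (SD, n = 3 each). The log2 fold change was 0.52 with a standard error of 0.17, that is 1.43-fold, with an unadjusted p of 0.0134 and an adjusted p of 1 from limma. Microglia markers were high on the same array. Over 11 of 12 listed microglia markers the mean level was 7.48, 7.50 and 8.13 on the sevoflurane arrays and 7.43 to 7.46 on the control arrays, and 10 of the 11 had a positive difference. Their part in the value of Mertk was not tested. Without sevoflurane replicate 3 the log2 fold change of Mertk was 0.35 (standard error 0.14, unadjusted p = 0.0391 from limma). It was 0.45 without control replicate 2, with an unadjusted p of 0.0507, and the one-way analysis of variance gave an unadjusted p of 0.0568.

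Htra1, a secreted serine protease that astrocytes release and that cleaves extracellular matrix proteins, kept its call in all 6 fits that left out 1 array. The sevoflurane arrays read 8.18, 8.40 and 8.37, and the control arrays 7.98, 7.68 and 7.96. The lowest sevoflurane value was thus above the highest control value by less than the range within either group. The log2 fold change was 0.44 with a standard error of 0.13, or 1.36-fold (unadjusted p = 0.0077, adjusted p = 1 from limma). With an array left out it was between 0.35 and 0.51, and the unadjusted p from limma was at most 0.0377.

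Aldoc is the brain form of the glycolytic enzyme aldolase and a classical astrocyte marker. It was 11.25, 11.19 and 11.22 on the sevoflurane arrays and 10.90, 10.80 and 11.04 on the control arrays. The sevoflurane values were close together, with an SD of 0.03, and the controls were more spread, with an SD of 0.12. Its log2 fold change was 0.30 (standard error 0.11, 1.23-fold, unadjusted p = 0.0223 from limma). The call was lost without control replicate 1 (unadjusted p = 0.0627 from limma) and without control replicate 2 (0.0962), where the log2 fold change was 0.25.

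Mlc1 forms a complex with the adhesion molecule Hepacam in the membranes of astrocyte endfeet, and mutations of either gene in people cause a leukoencephalopathy with swelling of the white matter. Mlc1 was at 9.22, 9.30 and 9.23 after sevoflurane and at 8.90, 8.93 and 9.10 in controls. Control replicate 3 was the nearest to the sevoflurane values. The log2 fold change was 0.27 with a standard error of 0.11, or 1.21-fold (unadjusted p = 0.034 from limma). It was the least stable of the 4 calls, kept in 2 of the 6 fits with 1 array left out, those without sevoflurane replicate 1 and without control replicate 3. In the other 4 fits the unadjusted p from limma was between 0.06 and 0.116, and with each array centred on its median it was 0.0571.

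The stretches upstream of the start sites of these 4 genes are shown because these were the members called, so that their promoters can be set side by side. Each line holds the 250 bases before the start of the transcript in the GRCr8 assembly from RefSeq, read 5′ to 3′ on the strand of the gene, and capitals mark CG dinucleotides, the sites of DNA methylation.
Mertk, chr3:136392324-136392573, plus strand: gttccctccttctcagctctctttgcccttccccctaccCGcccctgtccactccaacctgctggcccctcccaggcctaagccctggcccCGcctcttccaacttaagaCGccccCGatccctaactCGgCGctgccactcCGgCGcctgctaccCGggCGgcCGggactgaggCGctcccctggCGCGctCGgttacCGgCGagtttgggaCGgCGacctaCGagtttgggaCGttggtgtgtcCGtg
Htra1, chr1:194927819-194928068, plus strand: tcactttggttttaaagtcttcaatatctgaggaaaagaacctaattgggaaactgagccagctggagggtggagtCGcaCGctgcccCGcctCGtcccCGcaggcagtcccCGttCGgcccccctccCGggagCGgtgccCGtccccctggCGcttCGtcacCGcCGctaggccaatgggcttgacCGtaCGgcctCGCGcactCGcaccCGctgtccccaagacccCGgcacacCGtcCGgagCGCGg
Aldoc, chr10:63715294-63715543, plus strand: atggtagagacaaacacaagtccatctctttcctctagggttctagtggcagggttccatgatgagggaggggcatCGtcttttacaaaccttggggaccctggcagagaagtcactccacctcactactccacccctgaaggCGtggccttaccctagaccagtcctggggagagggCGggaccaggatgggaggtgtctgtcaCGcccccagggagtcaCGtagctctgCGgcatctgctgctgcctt
Mlc1, chr7:121946699-121946948, minus strand: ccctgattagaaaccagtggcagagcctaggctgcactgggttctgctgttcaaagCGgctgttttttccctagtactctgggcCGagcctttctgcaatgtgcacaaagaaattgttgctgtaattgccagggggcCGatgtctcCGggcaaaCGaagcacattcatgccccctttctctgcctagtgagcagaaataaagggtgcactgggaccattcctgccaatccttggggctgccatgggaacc
The 4 stretches fall into 2 kinds. Mertk and Htra1 have 22 and 25 CG dinucleotides in this length, a number reached by 13.7% and 9.74% of all 33469 windows. Aldoc and Mlc1 have 6 and 5, where the median of all windows was 5. Of the 31 measured genes, 28 had an entry in the table, with 31 windows in all, since Aqp4, Glul and Hepacam have more than 1 start site there, and the median over these was 7.

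Letters recognised by 5 kinds of transcription factor were searched on both strands in these windows. The core of the hypoxia response element, ACGTG, was found in Aldoc, on the reverse strand from 31 to 27 bases before the start, and in Slc14a1. It stands in 16.6% of all windows and in 6.45% of the 31 member windows. TTCNNNGAA, a STAT site, was found in Acsbg1, Ntsr2 and Serpina3n (9.68% of member windows, 7.67% of all). The site of the glucocorticoid receptor, GNACA and TGTNC set 3 bases apart, was found in Serpina3n alone (3.23% of member windows, 0.373% of all). Neither the site of nuclear factor I, TTGGC and GCCAA set 5 bases apart, nor ACAATG of SOX factors was found in a member window, and these letters stand in 0.0359% and 11.1% of all windows. A match or its absence describes the letters of a window only.

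Of the 7 genes of transport and adhesion, Mlc1 among them, 3 had groups that did not overlap and 1 was called. The shares over the 22093 genes were 4.93% with every sevoflurane array above every control array and 1.10% called higher. Aqp4, the water channel of the endfeet, was at 8.34, 8.36 and 8.57 on the sevoflurane arrays and 8.16, 8.04 and 8.30 on the control arrays. The highest control array lay just under the lowest sevoflurane array. Its log2 fold change of 0.26 (standard error 0.12, 95% interval from -0.02 to 0.53) did not reach the threshold (unadjusted p = 0.0664 from limma), and it did with quantile normalization (0.029) and with an intensity trend (0.0431). Without sevoflurane replicate 1 the log2 fold change of Aqp4 was 0.30 (unadjusted p = 0.0375 from limma). Hepacam was at 9.09, 9.29 and 9.16 after sevoflurane, against 8.98, 9.06 and 9.01 in controls, a log2 fold change of 0.16 with a 95% interval from -0.08 to 0.41. Here too the groups did not overlap, by a margin smaller than the spread among controls. The sodium bicarbonate cotransporter Slc4a4 was at a log2 fold change of 0.16, and the amino acid transporter Slc7a10, the urea transporter Slc14a1 and Atp1b2, a beta subunit of the sodium pump, were at 0.01, -0.05 and -0.08, with overlapping groups in all 4. Without sevoflurane replicate 1 Slc4a4 was at 0.25 and Slc7a10 at -0.06.

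All 5 measured metabolic genes had a positive difference, and 3 of them, Aldoc, Glul and Acsbg1, did not overlap. Among the 22093 genes 62.5% had a positive difference, and 4.93% had every sevoflurane array above every control array. Glul, the glutamine synthetase that closes the glutamate-glutamine cycle, was at 11.80, 12.02 and 12.01 on the sevoflurane arrays and 11.75, 11.73 and 11.67 on the control arrays. Sevoflurane replicate 1 lay close to the controls. The log2 fold change was 0.23 (standard error 0.11, 95% interval from -0.02 to 0.48, unadjusted p = 0.0701 from limma), 0.30 without sevoflurane replicate 1 (0.0114), and 0.41 with quantile normalization (0.00657). The one-way analysis of variance gave Glul an unadjusted p of 0.0384. A second, dimmer probe set that also names Glul gave 0.07. Acsbg1, an acyl-CoA synthetase for long-chain fatty acids, was at 8.60, 8.69 and 8.71 after sevoflurane and 8.44, 8.41 and 8.58 in controls, with a log2 fold change of 0.19 (95% interval from -0.05 to 0.43). Aldh1l1, the folate enzyme used as a general astrocyte marker, was at 7.11, 6.95 and 6.98 after sevoflurane and 6.88, 6.94 and 7.02 in controls. These values overlapped, with a log2 fold change of 0.07 and a 95% interval from -0.18 to 0.31. The mitochondrial glutamate carrier Slc25a18 was at 0.09.

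Among the 5 secreted and calcium-binding proteins, Htra1, Clu and Cst3 did not overlap between groups. They too are part of the 10, beside 4.93% of the 22093 genes. Clu, or clusterin, an extracellular chaperone, was at 10.98, 11.08 and 11.02 on the sevoflurane arrays and 10.96, 10.82 and 10.92 on the control arrays. The gap between the groups was small beside the spread within them, and the log2 fold change was 0.13 (95% interval from -0.11 to 0.36). With quantile normalization Clu was at 0.27 (unadjusted p = 0.0305 from limma). Cst3, the protease inhibitor cystatin C, was at 10.69, 10.73 and 10.83 after sevoflurane and 10.58, 10.58 and 10.68 in controls, also a log2 fold change of 0.13 (95% interval from -0.11 to 0.37). Control replicate 3 came next to the lowest sevoflurane array. Sparcl1, a matricellular protein that promotes synapse formation, was at a log2 fold change of 0.08, and a dimmer probe set of the gene at -0.03. S100b, the calcium-binding protein by which astrocytes are often stained, was at 7.43, 7.39 and 7.49 after sevoflurane and 7.48, 7.33 and 7.51 in controls. Its values were interleaved, with a log2 fold change of -0.01 and a 95% interval from -0.25 to 0.24.

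Of the 4 transcription regulators and lineage genes none was called, and 2 had a negative difference. Sox9, a transcription factor that marks astrocytes and their progenitors, had the most negative log2 fold change of the 31 genes, -0.27 with a standard error of 0.14 (unadjusted p = 0.0909 from limma). It was at 9.02, 8.70 and 8.55 on the sevoflurane arrays, against 8.95, 9.12 and 9.00 on the control arrays. Sevoflurane replicate 1 lay among the controls and the other 2 sevoflurane arrays below them. Without that array its log2 fold change was -0.40 (unadjusted p = 0.00531 from limma), and with each array centred on its median it was -0.28 (unadjusted p = 0.0235 from limma). Id3 and Id4, inhibitors of basic helix-loop-helix factors, were at -0.02 and 0.05, and Fabp7, a fatty acid-binding protein of radial glia, at 0.09 (0.21 without sevoflurane replicate 1). Of the receptors beside Mertk, the neurotensin receptor Ntsr2 was at 0.05 and the orphan receptor Gpr37l1 at -0.11, both with overlapping groups.

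No reactive gene was called in the limma fit described above, and none had groups that did not overlap. With all 6 arrays kept, other settings did call some, Vim with an intensity trend and with quantile normalization, and Vim, Gfap and Cd44 higher and Nes lower with array weights. Gfap, the intermediate filament protein whose increase defines reactive astrocytes, was at 9.19, 9.64 and 9.67 on the sevoflurane arrays and 9.42, 9.34 and 9.44 on the control arrays. Sevoflurane replicate 1 was the lowest of the 6 arrays and the other 2 sevoflurane arrays were the highest. The log2 fold change was 0.10 with a standard error of 0.15 and a 95% interval from -0.23 to 0.43 (unadjusted p = 0.507 from limma). Without sevoflurane replicate 1 the value of Gfap was 0.25 (unadjusted p = 0.0256 from limma), and with array weights 0.21 (0.0295). Vim, the filament protein vimentin, which endothelial and ependymal cells also make, was at 8.11, 8.35 and 8.31 after sevoflurane and 8.15, 7.83 and 7.93 in controls. Only control replicate 1 reached the sevoflurane values. Its log2 fold change of 0.29 (standard error 0.13, 95% interval from -0.003 to 0.58) was next to the threshold (unadjusted p = 0.0519 from limma), and became 0.36 without sevoflurane replicate 1 (0.0162) and 0.38 without control replicate 1 (0.0271). With all 6 arrays Vim was called with an intensity trend at the same fold change (unadjusted p = 0.0341 from limma), with quantile normalization at 0.29 (0.0157) and with array weights at 0.39 (0.00117).

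Serpina3n, a secreted serine protease inhibitor and one of the most inducible genes of reactive astrocytes in mice, was at 5.49, 5.19 and 5.04 on the sevoflurane arrays and 5.09, 5.24 and 5.20 on the control arrays. These overlapped, with a log2 fold change of 0.06 (95% interval from -0.25 to 0.38), and a dimmer probe set of the gene also gave 0.06. The direction of Serpina3n turned without sevoflurane replicate 1, to -0.06, and the value was 0.16 without sevoflurane replicate 3. Lcn2, the siderophore-binding lipocalin that rises in reactive astrocytes of mice, was at 0.08 (95% interval from -0.27 to 0.42). Cd44, the hyaluronan receptor, was at 5.85, 6.07 and 6.20 after sevoflurane and 5.69, 5.88 and 5.74 in controls. The overlap of Cd44 came from 1 pair, sevoflurane replicate 1 below control replicate 2. The log2 fold change of Cd44 was 0.26 (standard error 0.13, unadjusted p = 0.0683 from limma), 0.36 without sevoflurane replicate 1 (0.00945) and 0.32 with array weights (0.00295). Nes, the filament protein nestin of progenitors, and S100a10, a partner of annexin A2, were at -0.08 and -0.05, and without sevoflurane replicate 1 at -0.22 and 0.08. Across the reactive genes the 95% intervals reached upper bounds between 0.23 and 0.58, so that increases up to these sizes lay within the error of 3 arrays per group.

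**Figure D2:**
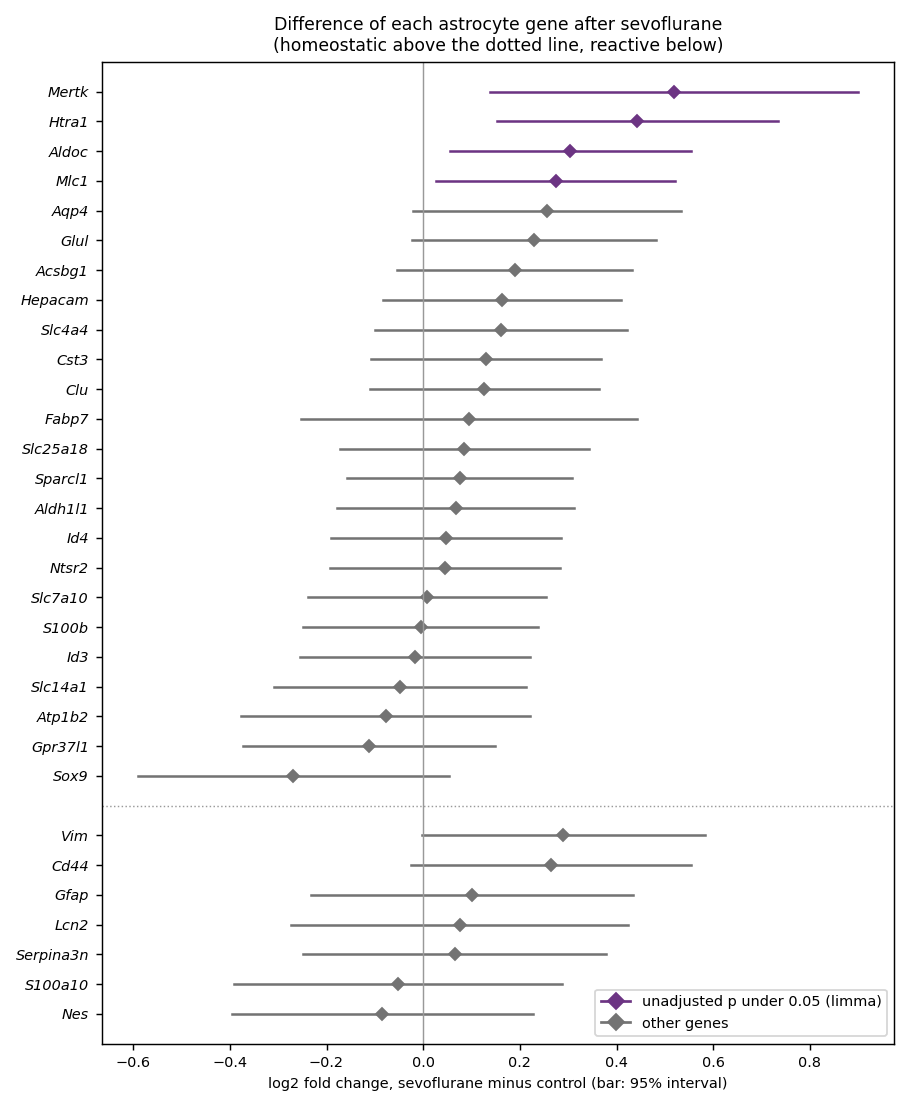
Log2 fold change of each astrocyte gene, sevoflurane minus control, with its 95% interval from limma (3 arrays per group). Purple genes had an unadjusted p under 0.05, which were Mertk, Htra1, Aldoc and Mlc1, and the intervals of the other 27 genes include 0.

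Sevoflurane replicate 1 had the lowest value of its group in 18 of the 31 astrocyte genes (58.1%), against 35.1% of the 22093 genes, over which the same array was the highest of its group in 53%. Without it, 10 members were called higher, Aqp4, Mlc1, Slc4a4, Aldoc, Glul, Mertk, Htra1, Gfap, Vim and Cd44, and 2 lower, Sox9 and Nes. In that fit 1.93% of all probe sets were called higher and 4.08% lower, and the smallest adjusted p of a member was 0.794. Nes was then at -0.22 (unadjusted p = 0.0473 from limma) and Slc4a4 at 0.25 (unadjusted p = 0.0266 from limma). The count of higher members was 1, Htra1, without control replicate 2, where 0.771% of all probe sets were called higher. Weighting the arrays by their quality gave 11 higher and 2 lower members, where 4.45% of all probe sets were called higher and 9.45% lower.

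**Figure D3:**
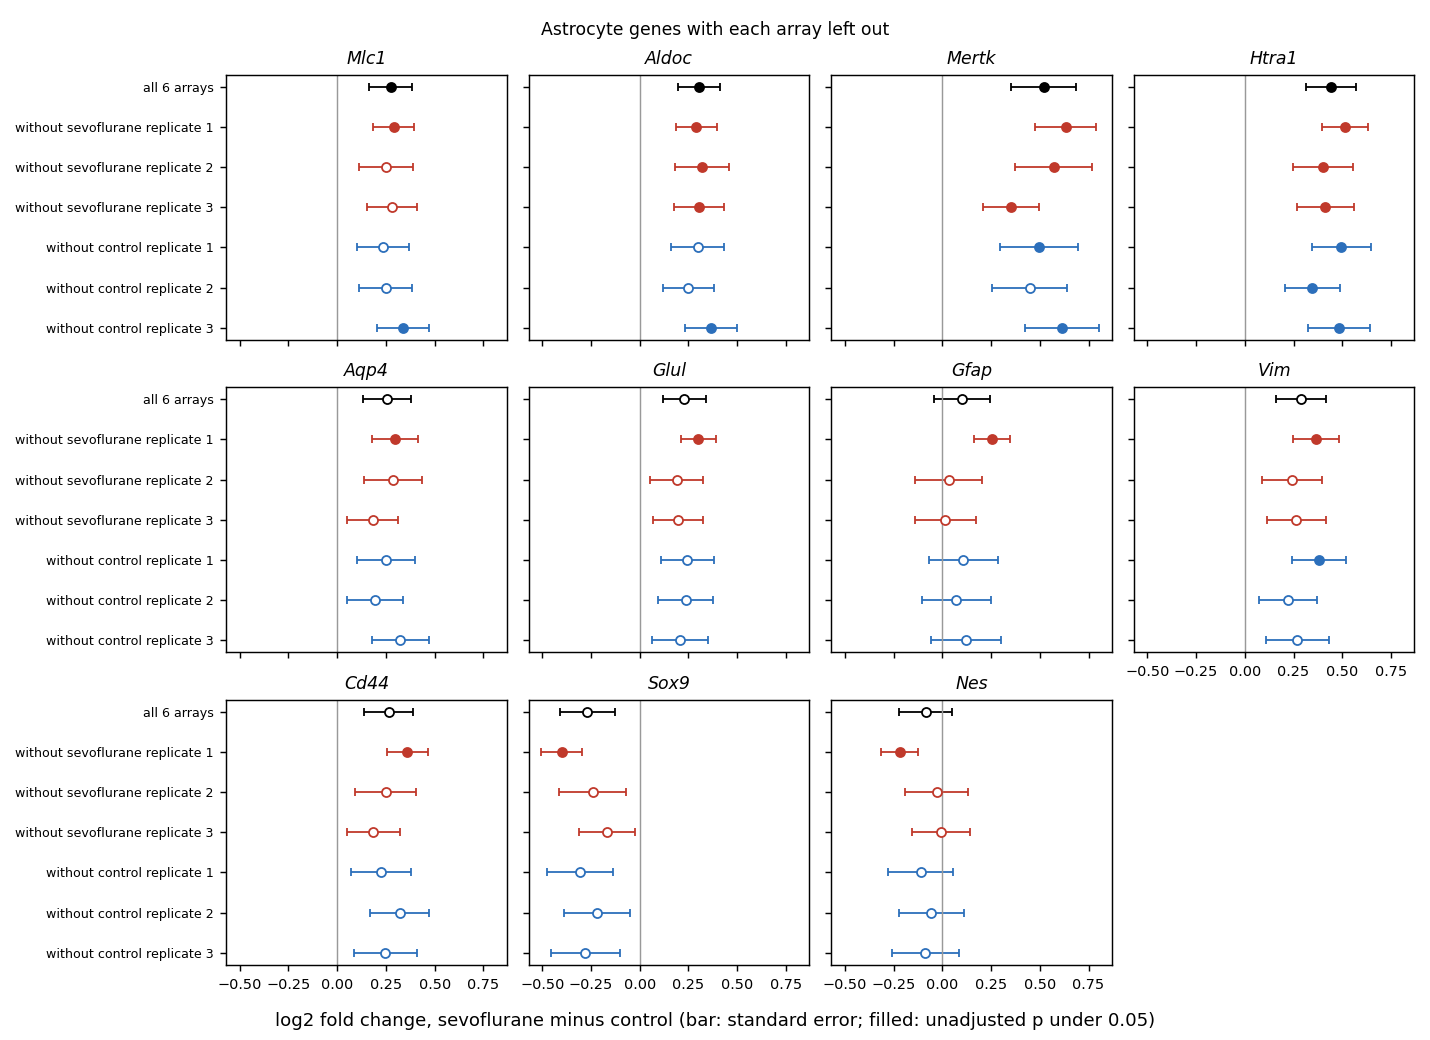
Log2 fold change (sevoflurane minus control) of 11 astrocyte genes with all 6 arrays (black) and with each sevoflurane array (red) or control array (blue) left out, with the standard error as a bar. Filled symbols have an unadjusted p under 0.05. Htra1 is filled in every fit, whereas Gfap, Cd44, Sox9 and Nes are filled only without sevoflurane replicate 1.

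Other genes expressed by astrocytes were drawn from a list of 56, of which 54 were measured. In this list 9 genes (16.7%) were called higher and 2 lower at an unadjusted p under 0.05, with a median log2 fold change of 0.06. Of the 22093 genes 1.10% were called higher and 0.222% lower. The list was chosen with earlier results of these data known. Gjb6, the astrocyte connexin Cx30, was at 7.89, 7.91 and 7.98 on the sevoflurane arrays and 7.11, 7.22 and 7.18 on the control arrays. Its groups were far apart beside their spread, with a log2 fold change of 0.76, a standard error of 0.10 and an unadjusted p of 5.63e-05 (adjusted p = 0.849 from limma). Gja1, the other astrocyte connexin, was at 0.14. Etnppl, an enzyme that degrades phosphoethanolamine, was at 7.34, 7.68 and 7.47 after sevoflurane and 6.90, 6.86 and 6.86 in controls, a log2 fold change of 0.62 (standard error 0.12, unadjusted p = 0.000696 from limma). Prodh1, the proline dehydrogenase, was at 0.42 (unadjusted p = 0.00963 from limma). Slco1c1, a thyroid hormone transporter that endothelial cells express as well, was the most negative of the list at -0.72 (standard error 0.18, unadjusted p = 0.00326 from limma). The main glutamate transporters Slc1a2 and Slc1a3 were at 0.01 and 0.06, with overlapping groups.

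Further genes of reactive astrocytes, known from mice, were taken in 3 lists by the stimulus that induces them. Of 8 genes common to several stimuli none was called, with a median log2 fold change of 0.06. Of 11 genes induced by ischemia, the transporter Slc10a6 was called higher at 0.52 (standard error 0.20, unadjusted p = 0.0269 from limma), and the median was 0.04. Of 9 genes induced by neuroinflammation, 3 were called higher (33.3%), and 6 had groups that did not overlap (66.7%), with a median of 0.17. Over the 22093 genes 1.10% were called higher and 4.93% had every sevoflurane array above every control array. These 3 lists were chosen with earlier results of these data known. The FK506-binding protein Fkbp5 was at 0.52 (unadjusted p = 0.00787 from limma), complement C3 at 0.98 (0.0303) and the guanylate-binding protein Gbp2 at 0.39 (0.0464). C3 and Gbp2 are also made by microglia. C3 was at 7.71, 8.20 and 9.46 and Gbp2 at 5.93, 6.29 and 6.62 on the sevoflurane arrays, against 7.47, 7.35 and 7.62 and 5.89, 5.87 and 5.89 on the control arrays. Both were highest on sevoflurane replicate 3, the array on which the microglia markers were high, and the part of these cells in the values was not tested. Fkbp5 was also highest there, at 7.88, 8.03 and 8.39 on the sevoflurane arrays, against 7.67, 7.46 and 7.62 on the control arrays. Which cells of the whole tissue carry the difference of Fkbp5 was not tested, so its call cannot be assigned to astrocytes or to other cells.

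Over the 24 homeostatic genes the mean level exceeded that of the controls by 0.07, 0.13 and 0.13 on the sevoflurane arrays, while the control arrays lay between -0.04 and 0.05 about their own mean. Over the 7 reactive genes the sevoflurane arrays were at 0.04, 0.17 and 0.07 and the control arrays between -0.01 and 0.01. The 22093 genes together were at 0.08, 0.01 and -0.003 on the sevoflurane arrays. Markers of other cell types were read in the same way, beside 1.10% of the 22093 genes called higher and 0.222% called lower. Of 12 neuron markers none was called, with the sevoflurane arrays between -0.11 and 0.05 and the control arrays between -0.06 and 0.04. Of 11 oligodendrocyte markers 2 were called higher, Mag and Olig1 at 0.39 each, and 1 lower, Opalin at -0.61, with the sevoflurane arrays between -0.04 and 0.16 and the control arrays between -0.09 and 0.14. Of 11 microglia markers C1qc was called higher at 0.50, and the sevoflurane arrays were at 0.03, 0.06 and 0.69. None of 12 endothelial or 13 mural cell and fibroblast markers was called.

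Markers of thalamus and habenula, which border the hippocampus, were called higher in 7 of 15 cases (46.7%) and lower in none. Of the 22093 genes 1.10% were called higher and 0.222% lower. This list, Prkcd included, was chosen with earlier results of these data known. The mean of these markers exceeded that of the controls by 0.39, 0.87 and 0.17 on the sevoflurane arrays, against -0.04 to 0.04 on the control arrays. Those with the smallest p were Prkcd at a log2 fold change of 1.23, Slc17a6 at 1.02, Shox2 at 0.78 and Rora at 0.40. Astrocytes of neighbouring regions carry the same marker genes, and the part of such tissue in the astrocyte values was not tested. Choroid plexus (12 measured), ependymal (9) and red cell markers (6) had 1 higher gene (Cldn2), 1 lower (Spag6l) and 2 lower (Hba-a3 and Hbb-bs). None of the 6 red cell markers had a positive difference, with a median log2 fold change of -0.31. Their mean was at -0.46, -0.28 and -0.18 on the sevoflurane arrays and at 0.07, 0.12 and -0.19 on the control arrays. The part of blood in the astrocyte values was not tested.

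**Figure D4:**
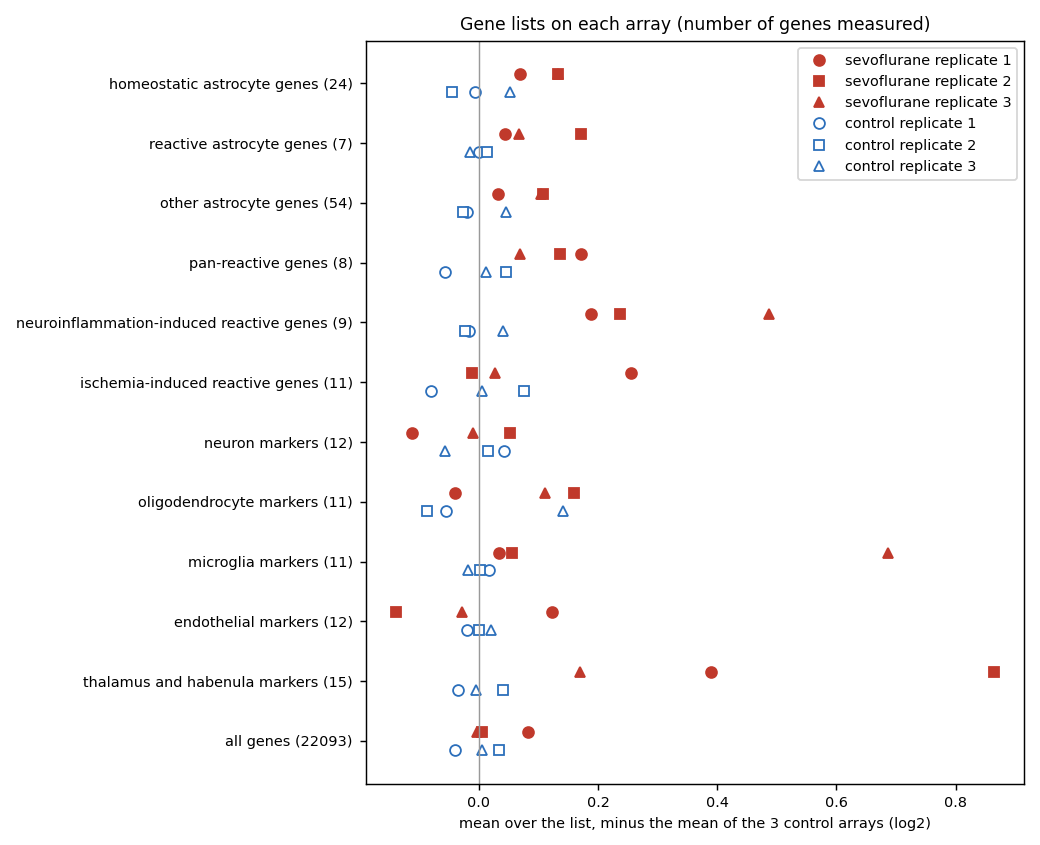
Mean normalized expression (log2) over each gene list on each array, as the difference from the mean of the 3 control arrays, with the number of genes measured in brackets. Filled red symbols are sevoflurane arrays and open blue symbols are control arrays. Microglia markers stand out on sevoflurane replicate 3 (0.69) and thalamus and habenula markers on sevoflurane replicate 2 (0.87), while the homeostatic astrocyte genes lie between 0.07 and 0.13 on the sevoflurane arrays.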

How the data were processed

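RNA of whole hippocampus from 3 sevoflurane and 3 control rats was hybridised to 6 one-colour arrays. The authors deposited normalized log2 values per probe set, and per the labels the tools were MAS5, RMA and Expression Console (1.4.1 from Affymetrix), whose separate roles are not given in the sources used here. Normalization between arrays can remove a change common to most transcripts. Of 70580 probe sets, 1738 controls were left out and 68842 were tested at any level. Gene names were those of the platform annotation (23446 probe sets with 1 symbol, 505 with several, 44891 with none). No column of the file lacked a sample.

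Groups were taken from the treatment label and compared with limma 3.58.1 in R 4.3.3 (lmFit and eBayes, two-sided, no covariate), with Benjamini-Hochberg adjustment over all probe sets. Called means an unadjusted p under 0.05, and intervals are at 95%. An exact permutation test of 3 arrays against 3 cannot give a p under 0.1, which every member with non-overlapping groups had. The test was first tried on simulated data. The number of arrays limits the precision. The members and the 13 other lists were chosen with earlier results of these data known. Values on every array are given for members called or without overlap, for defining markers (Gfap, Aqp4, Glul, Aldh1l1, S100b, Vim, Serpina3n), and for some genes chosen after their values were seen (Sox9 and Cd44). From each other list up to 4 called genes are named, by smallest p. Gja1, Slc1a2 and Slc1a3 were added after their values were seen. Promoter windows came from RefSeq (GRCr8). Alternatives were the one-way analysis of variance of the methods, an intensity trend with robust spread, array weights, arrays centred on their medians, quantile normalization, leaving out dim probe sets, averaging the probe sets of a gene, the replicate number as a block, and each array left out. Figures used matplotlib 3.10.9, and tables pandas 2.3.3 in Python 3.11.15.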

Additional observations from a re-analysis of the deposited data

How the results depend on the processing

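The count of probe sets at an unadjusted p under 0.05 was 1108, of which 53.7% were higher. It was 1735 with the one-way analysis of variance, 9566 with array weights (32% higher, 23 of them after adjustment but no member), 2096 with quantile normalization, 490 with the replicate block and 624 to 4138 with 1 array left out (32.2% higher without sevoflurane replicate 1). Percentages after the next member counts are the share of all probe sets called in that direction in the same fit. The 4 higher members (0.864%) became 11 with array weights (4.45%), 8 with quantile normalization (1.58%) and 2 with the replicate block (Mertk and Htra1, 0.436%). They were 1 to 10 with 1 array left out, where the share ranged from 0.413% to 1.93% and was 0.771% in the fit with 1 higher member. Lower members were 0 (0.745%), but 2 with array weights (9.45%) and 1 with centring on the median (Sox9, 0.744%). With 1 array left out they were 0 to 2 (0.363% to 4.08%). Quantile normalization gave homeostatic genes a median log2 fold change of 0.14, and array weights gave reactive genes 0.21. With 1 array left out these medians were 0.08 to 0.13 and 0.03 to 0.16. No alternative moved the median of all probe sets by over 0.1. Of 140 refits of the 10 members without overlap, 119 stayed on their side of the threshold, 11 lost the call, and 10 gained it. With an array left out their direction is fixed by how they were chosen. Of the 21 members with overlapping groups, 11 turned direction under at least 1 alternative (Atp1b2, Slc7a10, Slc14a1, Aldh1l1, Slc25a18, Id3, Fabp7, S100b, Lcn2, Serpina3n and S100a10). The replicate numbers did not pair the arrays, since deviations of same-numbered arrays correlated at -0.59, -0.29 and 0.03, and under the block Mlc1 (p = 0.103) and Aldoc (p = 0.073) lost their calls from limma.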
